A study of Mus musculus with 19 samples.

Results

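The sialyltransferase genes *St8sia6*, *St8sia1*, *St3gal1* and *St6gal1* were followed through thymocyte development in mice whose T cells were directed to the CD4+ lineage, to the CD8+ lineage or to both. They are 4 of the 28692 genes in the count tables and 4 of 20 sialyltransferase genes found there, and were taken by name. *St8sia6* was named because it had stood out in these same cells as one of the genes most restricted to the CD4 lineage, so its difference between CD4 and CD8 lineages is given here as a description, without a test. The other 3 genes were not chosen on that contrast.

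Sialyltransferases sit in the Golgi and attach sialic acid to the ends of glycans on proteins and lipids, where it alters charge and hides or creates binding sites for lectins. The thymus is a classic site of this control: immature cortical thymocytes carry bare core 1 O-glycans that bind peanut agglutinin, and mature medullary thymocytes lose that binding as the glycans are capped with sialic acid. *St3gal1* encodes the enzyme that caps core 1 O-glycans with α2,3-linked sialic acid, on carriers that include CD8, CD43 and CD45, and *St6gal1* encodes the enzyme that adds α2,6-linked sialic acid to N-glycans and makes ligands of the B cell lectin CD22. *St8sia1* (GD3 synthase) and *St8sia6* encode α2,8-sialyltransferases, which extend an existing sialic acid, on gangliosides for *St8sia1* and mainly on O-glycans for *St8sia6*.

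The data were CITE-seq counts, in which RNA and 111 surface proteins (through antibodies carrying DNA tags) were counted in the same single cells of 17 female mice aged 4 to 8 weeks. CD4-fated mice (2 of each genotype) were AND mice, which carry a transgenic T cell receptor (TCR) specific for MHC class II on a *Rag1*-/- background, OT-II mice, with another MHC class II-specific TCR transgene, and MHCI-/- mice, which lack *B2m*. CD8-fated mice (2 of each genotype) were F5 mice, with an MHC class I-specific TCR transgene on a *Rag1*-/- background, OT-I mice, with another MHC class I-specific TCR transgene, and MHCII-/- mice, which lack *H2-Ab1*. There were 5 wild-type (WT) mice. MHCI-/-, MHCII-/- and WT 1 to 3 thymocytes were sorted for CD5 and TCRβ, so that their earliest thymocytes were depleted, and all others were unsorted. The labels number 3 experiments: WT 1, AND 1 and F5 1 in experiment 1, all MHC-deficient mice with WT 2, WT 3, AND 2 and F5 2 in experiment 2, and OT-I, OT-II, WT 4 and WT 5 in experiment 3. The study's sample sheet places experiment 3 at another site. Against the other lineage-restricted mice, the OT genotypes therefore cannot be told apart from site or experiment. WT 4 and WT 5 shared both with the OT mice. Each TCR transgenic genotype has 1 transgenic receptor, and the TCR transgenes are expressed earlier than a rearranged receptor would be. Only AND and F5 mice are described as *Rag1*-/-. The paper states that an endogenous TCR might accompany the transgenic one where *Rag* is intact, so OT-I and OT-II cells need not have 1 specificity.

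Cells were assigned to stages by surface proteins alone, so that RNA of the 4 genes took no part in it. Double-positive (DP) cells that carried CD71 formed the DP CD71+ gate. DP1 cells were DP cells that lacked CD71, CD69, CD127 and high TCRβ, and signaled DP cells (DP2) carried CD69. CD4+CD8lo cells carried CD69, DP3 cells carried TCRβ with CD8 and CD127 or reduced CD4, and semimature (SM) and mature (Mat) single-positive cells of each lineage carried and lacked CD69. The gates took 56726 of the 69338 cells kept (81.8%). Median RNA levels of known lineage genes followed the gates, with exceptions in CD4 Mat cells of CD8-fated mice. The median level of *Zbtb7b*, which specifies the CD4 lineage, was 55.6 in CD4 Mat cells, in unique molecular identifiers (UMIs) per 1000000 (CPM), and 0.311 in CD8 Mat cells, and *Nkg7*, a CD8 lineage gene, was at 520 in CD8 Mat cells and 5.03 in CD4 SM cells. In CD4 Mat cells *Nkg7* was at 0.808 to 15.5 CPM in WT mice and at 0 to 112 in CD8-fated mice. *B2m* RNA over all cells was 50.9 CPM in MHCI-/- 1 and 51.2 in MHCI-/- 2, against 385 to 1385 in the other 15 mice. *H2-Ab1* RNA ran from 1.49 to 111 CPM in mice that carry the gene. That range held both MHCII-/- values (7.17 and 7.11) and could not check that knockout. *Rag1* RNA was 5.08 and 9.78 CPM in AND mice, below all other mice. In F5 mice *Rag1* was at 21.9 and 56.8, overlapping OT-I mice (31.1 and 63.0), and could not check their knockout. These are sums over all cells, and the mix of stages differed between genotypes. DP1 cells were 80 of 2506 and 75 of 1793 cells kept in AND mice. They were 644 of 2430 and 1341 of 4212 in F5 mice, and 235 of 3166 and 171 of 3165 in OT-I mice. The part of this mix in the *Rag1* values was not tested.

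The 19 lanes held 9893333 to 43303999 RNA UMIs, with a median of 1507 to 7225.5 UMIs per cell kept. Levels (CPM) are UMIs of a gene per 1000000 UMIs summed over all cells of 1 mouse in 1 gate, with the mouse as the replicate. In such sums, fewer cells with the RNA and less RNA in each cell cannot be told apart. WT 5 (2 lanes, medians 1553.5 and 1507) and OT-II 2 (median 2133) were the shallowest libraries. AND 2 kept 1793 of 4518 barcodes and had the lowest antibody depth, a median of 1100 antibody UMIs. At most 1.273% of the barcodes of a lane were also found in another. Intervals on ratios of UMIs are 95% exact intervals that cover counting error only.

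*St8sia6* lies on the minus strand at chr2:13651021-13794064 (GRCm38, as all coordinates here). A gene on the opposite strand, *Gm37126*, overlaps it and had 2 UMIs in all. *St8sia1* spans chr6:142821545-142964452, also on the minus strand. *St3gal1* lies on the minus strand at chr15:67102875-67176830 with no overlapping gene. *St6gal1* lies on the plus strand at chr16:23224740-23360350, and *BC106179*, on the opposite strand within the same span, had 1586 UMIs. The counting used the sense strand, so these were kept apart from *St6gal1* as far as the library keeps strand.

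*St8sia6* RNA was almost absent from DP CD71+, DP1 and DP2 thymocytes and stood higher at the later stages of the CD4 lineage, within a narrow range in mature CD4+ cells of WT mice. No *St8sia6* UMI was found among 21327952 UMIs of DP CD71+ cells from 17 mice, which allows up to 0.141 CPM. DP1 cells held 16 *St8sia6* UMIs in 84010920, at 0 to 1.13 CPM per mouse. DP2 cells held 4 *St8sia6* UMIs, with 0 in all 6 CD4-fated mice. *St8sia6* was first seen in most mice in CD4+CD8lo cells, at 0.771, 2.15, 2.32, 1.81 and 2.32 CPM in WT 1 to 5. In the same gate AND mice had 2.69 and 5.29, MHCI-/- mice 6.79 and 3.38 and OT-II mice 0 and 7.52 CPM. These 11 mice lay between 0 and 7.52 CPM, above the 0 to 2.38 of their DP2 cells only in part. Each of these values rests on few UMIs, 25 in the 11 mice together. DP3 cells had 0, 8.89, 0, 0 and 4.62 CPM in WT 1 to 5, from 5 UMIs, 4 of them in WT 2, whose value came close to the lowest WT value in CD4 SM cells (8.91). Summed over WT mice, DP3 cells had 1.57 times the *St8sia6* of CD4+CD8lo cells per UMI counted, with an interval of 0.413 to 5.21. DP3 cells of CD4-fated mice had 0 to 1.20 and those of CD8-fated mice 0 to 2.69 CPM.

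In CD4 SM cells *St8sia6* stood at 10.3, 11.7, 13.6, 9.77 and 8.91 CPM in WT 1 to 5. AND mice had 24.1 and 13.9, MHCI-/- mice 9.47 and 11.4 and OT-II mice 16.3 and 7.78 CPM. Every one of the 11 mice was higher in CD4 SM than in its own CD4+CD8lo cells. In CD4 Mat cells WT 1 to 5 had 39.8, 40.0, 39.2, 45.1 and 38.7 CPM, a mean of 40.5 ± 2.60 (SD, n = 5), and no WT value overlapped the SM range. CD4 Mat cells of AND mice had 44.9 and 38.5, of MHCI-/- mice 31.8 and 31.2 and of OT-II mice 15.8 and 33.2 CPM. OT-II 1 was the exception among the 11 mice, with 16.3 CPM in SM and 15.8 in Mat cells, from 461 Mat cells of a library with a median of 4218 UMIs per cell.

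**Figure D1:**
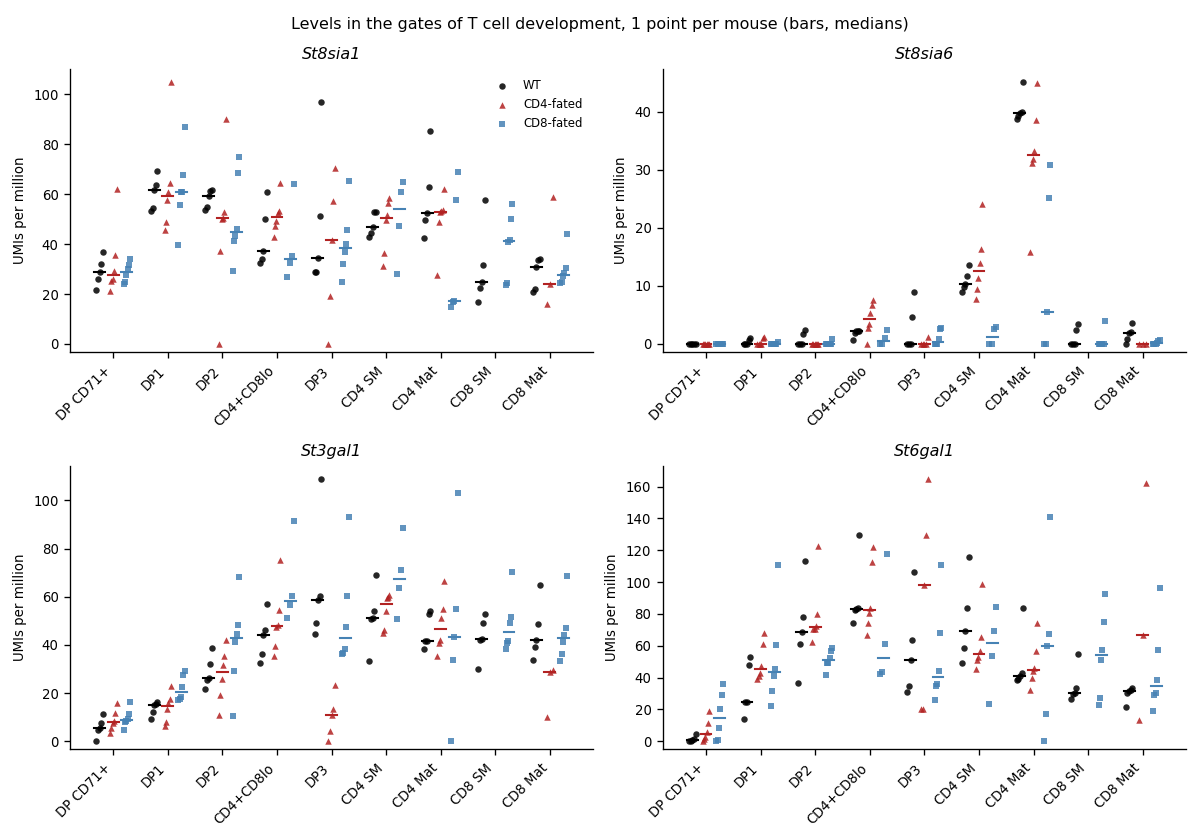
Level of each gene (y axis, CPM, linear) in the 9 gates of conventional T cell development (x axis), 1 point per mouse with at least 10 cells and a bar at the median: WT black circles, CD4-fated red triangles, CD8-fated blue squares. *St8sia6* is near 0 until the CD4 SM gate and reaches 38.7 to 45.1 in WT CD4 Mat cells, *St3gal1* and *St6gal1* rise from DP1 to DP2, and *St8sia1* is present throughout. The blue points in the CD4 SM and CD4 Mat gates are such cells of CD8-fated mice, 10 to 168 per mouse.

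The stage steps were tested within mice, in 1 fit over CD4-fated and WT mice (edgeR's quasi-likelihood test, each mouse as a block, Benjamini-Hochberg adjustment over 9218 genes). For *St8sia6* these steps are given as a description, without a test, because the same CD4 SM and CD4 Mat cells had led to its choice and it passed the low-count filter through the gates in which it is high. Summed UMIs of *St8sia6* were 4.68 times higher per UMI counted in CD4 SM than in CD4+CD8lo cells (95% interval 3.13 to 7.31) and 2.74 times higher in CD4 Mat than in CD4 SM cells (2.45 to 3.08). The later gate was higher in 11 of 11 mice at the former step and in 10 of 11 at the latter. From DP2 to CD4+CD8lo cells the ratio was 7.35 with an interval of 1.83 to 64.0, from 25 against 2 UMIs. Between DP1 and DP2 cells the ratio was 1.74, with an interval of 0.192 to 7.58 that spans no change.

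Of the other 3 genes, *St3gal1* and *St6gal1* were called from DP1 to DP2, where 34.6% of all genes tested were called. *St3gal1* was the 1 gene called from DP2 to CD4+CD8lo (12.9% of all genes) and from CD4+CD8lo to CD4 SM (30.8%), and *St6gal1* from CD4 SM to CD4 Mat (22.2%). With so few genes against such shares, the number called says nothing about them as a set.

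Between lineages the *St8sia6* levels did not overlap at either single-positive stage, as its choice implies. CD8 SM cells of WT 1 to 5 had 0, 2.35, 3.496, 0 and 0 CPM, and their CD8 Mat cells 2.00, 0, 0.871, 3.61 and 1.85. In all 5 mice the CD4 gate was higher than the CD8 gate at both stages. Over the 5 WT mice the ratio of CD4 SM to CD8 SM was 8.62 (interval 3.30 to 32.0), from 170 against 4 UMIs, and that of CD4 Mat to CD8 Mat was 25.2 (12.1 to 63.1), from 375 against 7. In lineage-restricted mice, CD8 Mat cells of F5 mice and MHCII-/- 1 had no *St8sia6* UMI, and MHCII-/- 2, OT-I 1 and OT-I 2 had 0.530, 0.237 and 0.641 CPM. Set against CD4 Mat cells of CD4-fated mice this gave a ratio of 125 (57.0 to 342), from 488 UMIs in 15125400 and 6 in 23259169. WT CD8 Mat cells, from thymi that also make CD4 cells, had 7 UMIs in 4335559, and whether these came from free RNA or from misassigned cells was not tested.

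Cells with the surface of the other lineage varied in number between lineage-restricted mice. CD4-fated mice held 1 to 39 CD8 Mat cells, and among CD8-fated mice F5 and MHCII-/- mice held 3 to 23 CD4 Mat cells. OT-I mice held 144 and 105 CD4 Mat cells, and their 166 and 168 CD4 SM cells outnumbered their 106 and 130 CD8 SM cells. CD4 SM cells of MHCII-/- and OT-I mice had 0 to 2.90 CPM of *St8sia6* (4 UMIs in 423 cells), below the lowest WT value of 8.91. The 0 of MHCII-/- 1 (26 cells) allows up to 23.7 CPM and MHCII-/- 2 rests on 1 UMI, so their own counts do not place these mice below WT. In CD4 Mat cells, MHCII-/- mice had 25.2 CPM (10 cells) and 30.9 CPM (23 cells), OT-I mice 5.56 (144 cells) and 0 (105 cells), and F5 2 had 0 (11 cells). These counts of 0 allow up to 9.38 CPM in OT-I 2 and 14.8 in F5 2. The MHCII-/- cells also had *Zbtb7b* at 42.0 and 34.3 CPM, below the WT range of 42.9 to 78.9, and *Cd40lg* at 101 and 68.6 against 29.9 to 70.9 in WT. In the same MHCII-/- cells *Nkg7* was at 67.2 and 103 CPM and *Runx3*, the CD8 lineage factor, at 109 and 130, above the WT ranges of 0.808 to 15.5 and 39.6 to 57.3. *S1pr1*, which marks cells ready to leave the thymus, was at 42.0 and 110, below the 299.6 to 684 of WT CD4 Mat cells, and what these cells are was not tested. The OT-I cells had *Zbtb7b* at 45.6 and 65.7 CPM, within the WT range, and *Cd40lg* at 17.8, below it, and 81.3, above it. Their *Nkg7* (112 and 34.4) and *Runx3* (151 and 178) also lay above the WT ranges and their *S1pr1* (134 and 291) below. *Trdc*, the constant region of the TCRδ chain, was at 433 and 303 CPM in the OT-I cells, against 8.40 and 10.3 in the MHCII-/- cells. The F5 2 cells had *Trdc* at 325 CPM, with *Zbtb7b*, *Cd40lg*, *Nkg7* and *S1pr1* at 0, and what these cells are was not tested. Conversely, 79 CD8 Mat cells of CD4-fated mice held no *St8sia6* UMI in 968788, which allows up to 3.097 CPM, and these cells had *Trdc* at 317, 788 and 354 CPM in the 3 mice.

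Outside the conventional lineages, *St8sia6* was seen in the CD25+GITR+ CD4 gate, whose *Foxp3* levels of 293 to 444 CPM mark regulatory T cells. It had 9.76, 57.1, 19.1 and 24.7 CPM in WT 2 to 5 and 23.1 and 25.4 in MHCI-/- mice, from 17 UMIs in 129 cells. These levels overlapped those of CD4 Mat cells of the same mice, and 5 of 6 mice were lower in the CD25+GITR+ gate. Summed over the 6 mice the ratio to CD4 Mat cells was 0.689 (interval 0.398 to 1.11), given without a test because those CD4 Mat cells had led to the choice of the gene. TCRγδ+ cells of 4 mice held no *St8sia6* UMI in 656074, which allows up to 4.57 CPM. Among CD25+ double-negative cells of 9 mice *St8sia6* lay between 0 and 1.27 CPM, and among TCRβ+ double-negative cells of 11 mice it was at or under 1.60 except in WT 3, where 2 UMIs gave 22.4 CPM.

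*St8sia1*, by contrast with *St8sia6*, was present at every stage, and it was higher in CD4 than in CD8 single-positive cells. Its DP1 level was 63.9, 69.2, 54.4, 61.6 and 53.1 CPM in WT 1 to 5. CD4-fated mice ran from 45.6 to 105 (median 59.3) and CD8-fated mice from 39.8 to 87.1 (median 61.0), so the 3 groups overlapped. DP CD71+ cells of 17 mice had 21.2 to 62.3 CPM (median 28.8), and CD25+ double-negative cells of 9 mice 4.42 to 23.7 (median 12.3). These earlier gates were not part of a test.

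No step within the CD4 lineage passed the test for *St8sia1*. The estimates were -0.13 and -0.14 up to CD4+CD8lo (adjusted p of at least 0.402) and 0.22 at each of the last steps on the log2 scale (adjusted p = 0.0941 and 0.0506). In the fit over CD8-fated and WT mice (8973 genes) no step passed either, the estimates lying between -0.42 (CD4+CD8lo less DP2, adjusted p = 0.101) and 0.10. In WT mice CD4 SM cells had 47.0, 42.9, 44.6, 53.0 and 52.7 CPM of *St8sia1*. CD8 SM cells of the same mice had 16.8, 22.3, 31.5, 24.8 and 57.8. WT 5 was reversed, so that the ranges overlapped. In CD4 Mat cells WT 1 to 5 had 49.8, 52.5, 42.5, 62.9 and 85.1 CPM, and in CD8 Mat cells 34.0, 33.7, 20.9, 30.7 and 22.2, with no overlap.

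Both lineage differences of *St8sia1* passed the test in 1 fit over the 4 gates of the 5 WT mice (8322 genes, edgeR, each mouse as a block). The log2 fold change was 0.74 ± 0.17 (SE) at the SM stage (adjusted p = 0.00112, CD4 higher in 4 of 5 mice) and 0.98 ± 0.16 at the Mat stage (adjusted p = 3.25e-06, 5 of 5). The Mat stage difference was not detectably larger than that at the SM stage (0.23 ± 0.25, adjusted p = 0.791). *St6gal1* was the other gene called at both stages, so 2 of 3 genes tested were called, where 20.2% of all genes were called at the SM stage, 22.3% at the Mat stage and 1.81% for the difference between the stages. The sums of 6 NKT cell markers were 6.58 to 14.0 CPM in WT CD4 SM cells and 48.2 to 206 in WT CD8 SM cells, with *Zbtb16* at 0 in the latter, and their part in the differences was not tested.

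**Figure D2:**
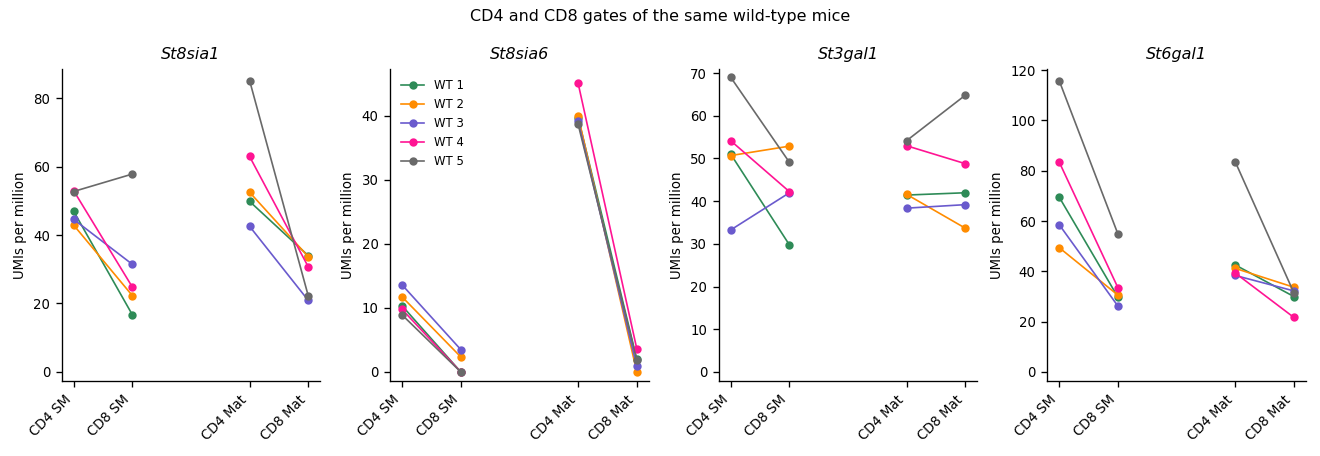
Level of each gene (y axis, CPM) in the CD4 and CD8 gates of the semimature (SM) and mature (Mat) stage, with lines joining the gates of the same WT mouse. All 5 lines of *St8sia6* and *St6gal1* fall from CD4 to CD8 at both stages, those of *St8sia1* do so except for WT 5 at the SM stage, and those of *St3gal1* run both ways.

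Lineage-restricted mice gave the same direction for *St8sia1* at the end of the lineages. CD4 Mat cells of AND mice had 27.6 and 49.0 CPM, of MHCI-/- mice 62.3 and 52.8 and of OT-II mice 53.1 and 53.7. CD8 Mat cells of F5 mice had 24.4 and 28.2, of MHCII-/- mice 27.1 and 24.9 and of OT-I mice 30.5 and 44.2. Within each family of genotypes the mean was higher in the CD4 lineage, but AND 1 lay below F5 2. The log2 fold change with the family as a covariate was 0.81 ± 0.18 (SE, adjusted p = 0.0101), and *St8sia1* was the 1 of 3 genes called where 14.0% of 9141 genes were. Sums of 7 γδ T cell markers ran from 17.7 to 403 CPM in these CD4 Mat and from 27.8 to 597 in these CD8 Mat cells, with all 7 detected in both, and their part was not tested.

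Earlier in development the lineage-restricted genotypes did not differ detectably in *St8sia1*. At CD4+CD8lo, AND mice had 43.0 and 49.4 CPM, MHCI-/- mice 53.2 and 47.3, OT-II mice 64.5 and 52.7, MHCII-/- mice 26.8 and 32.5 and OT-I mice 64.1 and 35.2. The MHC-deficient genotypes did not overlap, whereas the OT genotypes did. The log2 fold change of 0.53 ± 0.21 did not pass (adjusted p = 0.512), nor did 0.01 at DP1 (adjusted p = 1) or 0.09 at DP2 (0.924).

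In the CD25+GITR+ gate *St8sia1* was seen on 0 to 3 UMIs per mouse. WT 2 to 5 had 9.76, 11.4, 12.7 and 0 CPM, and MHCI-/- mice 17.3 and 25.4, where CD4 Mat cells of the same 6 mice had 42.5 to 85.1. The CD25+GITR+ value was lower in 6 of 6 mice, but a count as low as these does not fix the level of 1 mouse: the 0 of WT 5 allows up to 74.0 CPM. Summed over the 6 mice, 10 UMIs in 129 cells gave 0.264 times the *St8sia1* of CD4 Mat cells per UMI counted (interval 0.126 to 0.489), and the comparison passed the test (adjusted p = 6.3e-05, edgeR with each mouse as a block). *St8sia1* and *St3gal1* were called of 3 genes tested, where 11.9% of 4690 genes were, which says nothing about the genes as a set. At such counts both genes passed the low-count filter through CD4 Mat cells, the gate in which they are higher. Their p-values in this comparison are conditional on that. The sums of 10 myeloid and dendritic cell markers were 107 to 126 CPM in the CD25+GITR+ cells of WT mice and 219.9 and 248 in those of MHCI-/- mice, against 83.4 to 102 in CD4 Mat cells of WT mice, with 6 of the 10 markers, *H2-Aa*, *Itgax* and *Csf1r* among them, at 0 in the CD25+GITR+ cells, and their part was not tested.

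**Figure D3:**
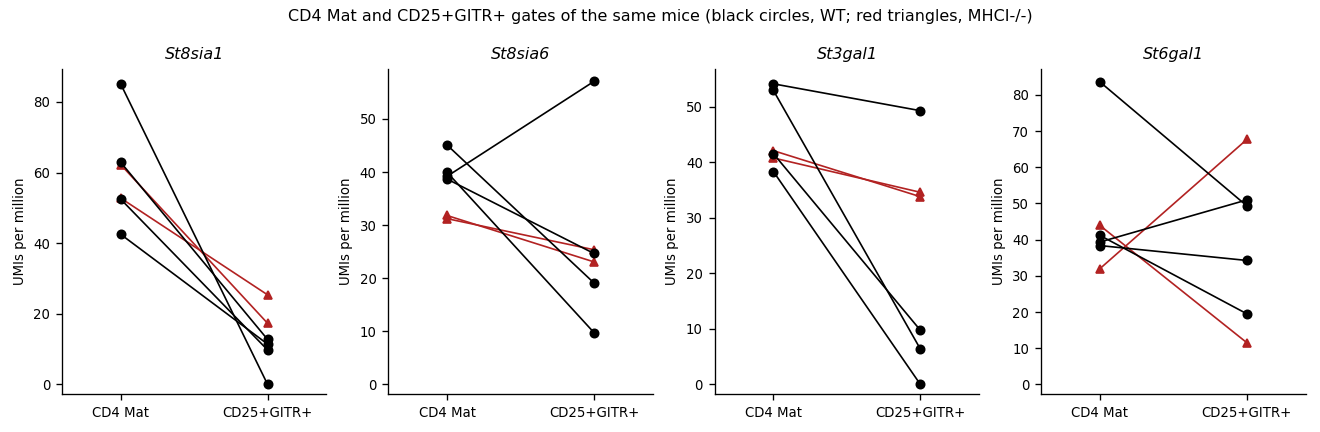
Level of each gene (y axis, CPM) in CD4 Mat and CD25+GITR+ cells, with lines joining the gates of 1 mouse (black circles, WT 2 to 5; red triangles, MHCI-/-). All 6 lines of *St8sia1* and *St3gal1* fall, and those of *St8sia6* and *St6gal1* run both ways.

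*St3gal1* rose from DP1 cells onward and then held its level in both lineages. In DP1 cells it was at 15.7, 16.3, 12.1, 9.06 and 14.9 CPM in WT 1 to 5. DP2 cells had 26.1, 31.9, 25.5, 21.6 and 38.7, above all of these DP1 values. CD4+CD8lo cells had 36.2, 46.2, 32.5, 57.1 and 44.0, each above the DP2 value of the same mouse. Over all mice the level was 0 to 16.3 CPM in DP CD71+ cells (median 7.92), 6.17 to 29.3 in DP1 (median 16.3), 10.3 to 68.3 in DP2 (median 31.8) and 32.5 to 91.5 in CD4+CD8lo cells (median 48.3). DP2 exceeded DP1 in 16 of 17 mice, OT-I 1 (15 DP2 cells) being the exception, and CD4+CD8lo exceeded DP2 in 15 of 15.

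The first step of *St3gal1* was called in both fits. Its log2 fold change from DP1 to DP2 was 1.10 ± 0.16 (SE, adjusted p = 1.28e-07) in CD4-fated with WT mice and 1.19 ± 0.18 (adjusted p = 1.02e-07) in CD8-fated with WT mice, fits that share the WT mice. In the latter, *St3gal1* and *St6gal1* were called of 3 genes tested, where 38.5% of all genes were. Sums of 6 cycling markers were 2133 to 6163 CPM in DP1 and 536 to 1866 in DP2 cells of WT mice, and their part in this step was not tested. From DP2 to CD4+CD8lo the change of *St3gal1* was 0.73 ± 0.15 (adjusted p = 0.000332) in the CD4-lineage fit. It was 0.48 ± 0.18 (adjusted p = 0.115) in the CD8-lineage fit, where none of the 3 genes and 5.34% of all genes were called.

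Later steps of *St3gal1* were small. From CD4+CD8lo to CD4 SM the log2 fold change was 0.38 ± 0.10 (adjusted p = 0.00362, higher in 8 of 11 mice), a call that was lost with stricter gates (adjusted p = 0.142) and with WT mice alone (0.0781). WT CD4 SM cells had 51.0, 50.7, 33.2, 54.2 and 69.0 CPM and WT CD4 Mat cells 41.4, 41.6, 38.4, 53.0 and 54.2, a step of -0.07 ± 0.09 (adjusted p = 0.654). In the CD8 lineage the steps to DP3, CD8 SM and CD8 Mat were 0.08, -0.09 and -0.05 (adjusted p = 0.848, 0.878 and 0.978). None of the 3 genes was called at these CD8-lineage steps, where 13.1%, 4.07% and 3.78% of genes were.

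Single-positive cells of the lineages had overlapping *St3gal1* levels. CD8 SM cells of WT 1 to 5 had 29.8, 52.9, 42.0, 42.2 and 49.1 CPM and CD8 Mat cells 42.0, 33.7, 39.2, 48.8 and 64.8. The CD4 gate was higher in 3 of 5 mice at the SM stage (0.17 ± 0.14, adjusted p = 0.455) and in 2 of 5 at the Mat stage (0.04 ± 0.14, adjusted p = 0.878). The difference between CD4 Mat cells of CD4-fated (35.6 to 66.3 CPM) and CD8 Mat cells of CD8-fated mice (33.1 to 68.6) was 0.19 ± 0.15 (adjusted p = 0.463). In DP3 cells the *St3gal1* levels of CD4-fated and CD8-fated mice did not overlap. CD4-fated mice had 0 to 23.5 CPM in 5 mice and CD8-fated mice 36.4 to 93.1 in 6. The CD4-fated values came from 21 UMIs in 202 cells, and this gate was not tested between lineages. The paper describes the DP3 stage for CD8-fated and not for CD4-fated thymocytes. The cells of CD4-fated mice in this gate may thus be of another kind, and what they are was not tested. At DP1 and CD4+CD8lo the CD4-fated mice were not detectably different (-0.38 and -0.29, adjusted p = 1 and 0.924), with none of 3 genes called where 0.0109% and 0.368% of all genes were. At DP2 *St3gal1* and *St8sia6* did not pass the low-count filter and were not tested between lineages. *St3gal1* levels in DP2 cells were 10.7 and 19.3 CPM in AND against 68.3 and 41.2 in F5 mice, and 25.8 and 31.8 in MHCI-/- against 48.2 and 44.6 in MHCII-/- mice. Both families were higher in the CD8-fated genotype without overlap, while OT-II mice (42.1 and 35.3) lay above OT-I mice (10.3 and 29.2). The AND and OT values rest on 1 to 10 UMIs each.

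CD25+GITR+ cells had less *St3gal1* than CD4 Mat cells in 6 of 6 mice. The CD25+GITR+ values were 9.76, 0, 6.37 and 49.3 CPM in WT 2 to 5 and 34.6 and 33.8 in MHCI-/- mice, and CD4 Mat cells of the same mice had 38.4 to 54.2. Only WT 5 came within the CD4 Mat range. Summed over the 6 mice the ratio was 0.478 (interval 0.260 to 0.808), from 14 UMIs in the CD25+GITR+ gate, with an adjusted p of 0.046 by edgeR. That p-value is conditional on a low-count filter passed through CD4 Mat cells, the gate in which *St3gal1* is higher. The call did not hold without WT 2, WT 3 or WT 4, with DESeq2 (adjusted p = 0.152), with doublets kept (0.0509) or with stricter gates (0.403).

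*St6gal1* rose from DP1 to DP2 and was higher in CD4 than in CD8 single-positive cells of WT mice. Several of its highest values came from WT 5, the shallowest library. OT-II 2 and OT-I 2 were shallower than their replicate 1 (medians of 2133 against 4218 and 3177 against 7225.5 UMIs per cell). Both also lay above their replicate 1 in CD4+CD8lo, CD4 SM and CD4 Mat cells, and the part of depth was not tested. In DP1 cells WT 1 to 5 had 52.9, 48.1, 24.7, 13.8 and 24.5 CPM. Their DP2 cells had 68.9, 78.2, 61.2, 36.5 and 113. Each mouse was higher in DP2, although the ranges overlapped. Over 17 mice DP CD71+ cells had 0 to 36.2 CPM (median 2.66), DP1 cells 13.8 to 110 (median 43.1) and DP2 cells 36.5 to 123 (median 62.5), with OT-I 1 and OT-I 2 the mice in which DP2 was lower than DP1. The step from DP1 to DP2 was called in both fits, with log2 fold changes of 1.05 ± 0.21 (SE, adjusted p = 3.78e-05) and 0.89 ± 0.17 (adjusted p = 2.53e-05).

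After DP2 no further rise of *St6gal1* passed the test, and its level was lower in CD4 Mat than in CD4 SM cells. WT CD4+CD8lo cells had 82.5, 83.3, 74.2, 83.4 and 130 CPM, WT 5 being far above the rest. Each lay above the DP2 value of the same mouse, as in all CD4-fated mice but AND 1 and OT-II 1. Of CD8-fated mice, OT-I mice were higher and MHCII-/- mice lower. The steps from DP2 to CD4+CD8lo did not pass in either fit (0.36 and 0.18, adjusted p = 0.29 and 0.735), nor did the step to CD4 SM (-0.29, adjusted p = 0.164). Without the low-count filter the step to CD4+CD8lo was called in the CD4-lineage fit (0.37, adjusted p = 0.0142). WT CD4 SM cells had 69.5, 49.4, 58.6, 83.5 and 116 CPM and WT CD4 Mat cells 42.5, 41.2, 38.4, 39.3 and 83.6. The change from CD4 SM to CD4 Mat was -0.40 ± 0.15 (SE, adjusted p = 0.0436, lower in 10 of 11 mice). That call was lost without any 1 of 7 mice, with DESeq2 (adjusted p = 0.0769) and with WT mice alone (-0.52, adjusted p = 0.147). From CD4+CD8lo to DP3 *St6gal1* was lower in 8 of 9 mice (-0.51 ± 0.18) and did not pass (adjusted p = 0.052).

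**Figure D4:**
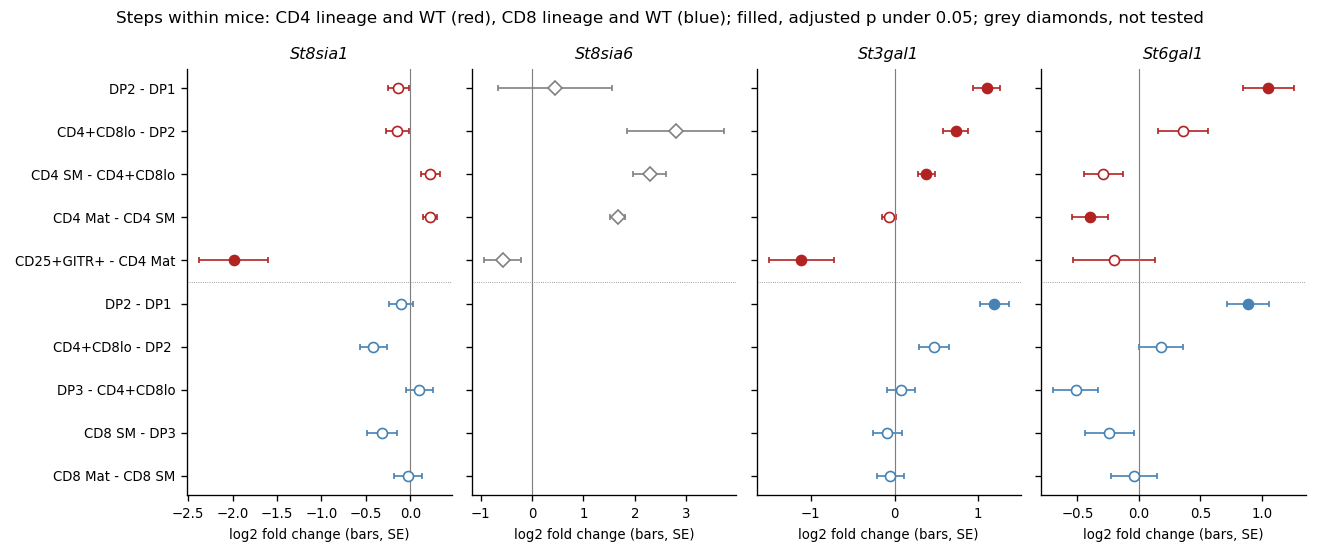
Log2 fold change with its standard error (x axis, edgeR) of each gene at successive stages within mice (y axis), red for fits over CD4-fated and WT mice and blue for fits over CD8-fated and WT mice, with filled points where the adjusted p was under 0.05 and grey diamonds for *St8sia6*, which was not tested. *St3gal1* and *St6gal1* moved up from DP1 to DP2 in both fits, the *St8sia6* values lie furthest from 0 at the later CD4-lineage steps, that gene being too low for the CD8-lineage fit, and *St8sia1* was called only in the CD25+GITR+ comparison.

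The lineage difference of *St6gal1* was seen in WT mice. CD8 SM cells of WT 1 to 5 had 29.8, 30.6, 26.2, 33.5 and 54.9 CPM, and all 5 CD4 SM values were higher than the CD8 SM value of the same mouse. CD8 Mat cells had 29.98, 33.7, 32.2, 21.7 and 31.5, all below the lowest CD4 Mat value of 38.4. The log2 fold change of CD4 over CD8 was 1.04 ± 0.16 at the SM stage (SE, adjusted p = 1.1e-06, 5 of 5 mice) and 0.62 ± 0.16 at the Mat stage (adjusted p = 0.00422, 5 of 5). Without WT 5 the latter was 0.46 with an adjusted p of 0.0527. The stages did not differ detectably (-0.43 ± 0.24, adjusted p = 0.513).

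Lineage-restricted mice did not show this *St6gal1* difference beyond their spread. CD4 Mat cells of AND mice had 39.6 and 56.7 CPM, of MHCI-/- mice 43.9 and 32.0 and of OT-II mice 45.8 and 74.2. CD8 Mat cells of F5 mice had 38.7 and 28.9, of MHCII-/- mice 30.1 and 19.1 and of OT-I mice 57.4 and 96.1. The AND and F5 values and those of the MHC-deficient genotypes were apart, with the CD4 lineage higher. The ranges of the OT genotypes overlapped, with the highest value in OT-I 2. At each replicate number OT-I lay above OT-II, the opposite direction, and same-numbered OT mice deviated together at this stage (r = 0.88). The log2 fold change was 0.33 ± 0.24 (adjusted p = 0.416).

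At CD4+CD8lo the same genotypes gave 80.6 and 74.0 CPM of *St6gal1* in AND, 122 and 83.7 in MHCI-/-, 66.5 and 113 in OT-II, 42.4 and 43.7 in MHCII-/- and 61.2 and 117 in OT-I mice (F5 mice had under 10 cells there). The contrast was 0.75 ± 0.29 (adjusted p = 0.506). With the replicate number as a block it was 0.83 ± 0.20 (adjusted p = 0.0353), and without OT-I 2 it was 1.07 (adjusted p = 0.0195). At DP2 it was 0.47 ± 0.16 (adjusted p = 0.206), with neither *St6gal1* nor *St8sia1* called where 1.46% of 3823 genes were. At DP1 it was 0.13 (adjusted p = 1).

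*St6gal1* varied widely in cells outside the conventional lineages. TCRγδ+ cells, 10 to 24 per mouse, had 124 and 154 CPM in OT-II and 95.1 and 96.2 in MHCII-/- mice. TCRβ+ double-negative cells had 127 CPM (426 cells) and 95.3 (23 cells) in AND, 165 (164 cells) and 294 (98 cells) in OT-II and 192 (421 cells) and 311 (465 cells) in OT-I mice. In the same gate MHCII-/- mice had 43.6 and 56.3 CPM, WT 3 33.7, WT 5 85.2 and F5 2 8.48, from 11 to 34 cells each. The OT mice, all of experiment 3, held the highest values, and the sums of γδ T cell markers in this gate were 391 to 4280 CPM in lineage-restricted mice. In CD25+GITR+ cells *St6gal1* ran from 11.5 to 67.7 CPM, overlapping CD4 Mat cells (-0.20 ± 0.33, adjusted p = 0.81).

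The knockout genotypes with diverse TCRs and the same sort as WT 1 to 3 allowed each lineage to be set against WT, with little power. In simulated data the MHCI-/- fit recovered 19% of 2-fold and 92% of 4-fold changes, and the MHCII-/- fit 20% and 91%. Most changes near 2-fold would thus be missed, and a gene not called may still differ from WT. In CD4 Mat cells none of the 3 genes tested was called in MHCI-/- mice, where 0.0771% of 9083 genes were. *St8sia6* was at 31.8 and 31.2 CPM in MHCI-/- mice, below the 39.2 to 40.0 of the sorted WT mice, which is given without a test as for its other comparisons. In CD8 Mat cells of MHCII-/- mice none of 3 genes was called, where 0.104% of 7697 genes were, and *St6gal1* showed the largest estimate, -0.44 ± 0.24 (adjusted p = 0.661).

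The other enzymes of sialic acid metabolism and the enzymes that build its acceptors were taken as 1 list of the remaining sialyltransferases, the sialic acid supply and removal genes, acceptor enzymes and sialic acid receptors. From DP1 to DP2, 5 of 26 such genes tested rose and 4 fell in the CD4-lineage fit, near the 34.6% of all genes called. Such counts, here and at the steps that follow, describe the list and are no test of it. *St3gal2*, which shares the core 1 O-glycan acceptor of *St3gal1*, rose by 1.59 on the log2 scale (adjusted p = 1.04e-07), *St6galnac4* by 1.06 (4.63e-05), while *Cmah*, whose enzyme makes N-glycolylneuraminic acid, fell by 0.84 (6.12e-05) and *Neu3*, a membrane sialidase, fell by 0.81 (0.031). In the CD8-lineage fit 8 of 25 rose and 4 fell, *St3gal2* again rising (1.31), where 38.5% of all genes were called. From DP2 to CD4+CD8lo, 3 of 26 rose and 4 fell against 12.9% of all genes, led by *Mgat5*, the N-glycan branching enzyme (-1.06, adjusted p = 6.11e-08).

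*St3gal2* then took a course unlike that of *St3gal1*. It fell at the step to CD4 SM (-0.70, adjusted p = 0.00242) and again to CD4 Mat (-0.94, 0.000139), and it also fell at the step to DP3 in the CD8-lineage fit (-1.71, 6.98e-05). In WT mice it was higher in CD4 than in CD8 cells at both stages, by 2.47 (adjusted p = 1.4e-06) and 2.23 (0.000195). At the step to CD4 SM, 7 of 26 genes of the list rose and 3 fell against 30.8% of all genes, with *B4galt5*, a lactosylceramide synthase (1.83, adjusted p = 1.6e-06), and *St6galnac3* (1.49, 5.81e-06) among those that rose. At the step to CD4 Mat 7 rose and 2 fell against 22.2% of all genes, *Cmah* among those that rose (0.74, adjusted p = 8.98e-08).

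Between the lineages of WT mice, 6 of 24 genes of the list were higher and 3 lower in CD4 SM than in CD8 SM cells, where 20.2% of all genes were called, and 5 were higher and 2 lower in CD4 Mat than in CD8 Mat cells, where 22.3% were. *St8sia4*, a polysialyltransferase, was higher in CD4 Mat than in CD8 Mat cells of WT mice (0.69, adjusted p = 0.000195) and of CD4-fated against CD8-fated mice (0.57, adjusted p = 0.00947), where 3 of 23 genes were higher and 1 lower against 14.0% of all genes. *B4galnt1*, which extends GM3 and GD3 gangliosides, was lower in CD4 SM than in CD8 SM cells (-0.83, adjusted p = 8.02e-15). In CD25+GITR+ cells 2 of 12 genes were lower than in CD4 Mat cells, against 11.9% of all genes called, *B3galt4* (-1.42, adjusted p = 0.00924) and *Ugcg*, the first enzyme of glucosylceramide synthesis (-0.93, 0.00061), while *B4galnt1* was at -0.16 (adjusted p = 0.61). The median log2 fold change over the list lay between -0.39, for the CD25+GITR+ comparison, and 0.22.

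**Figure D5:**
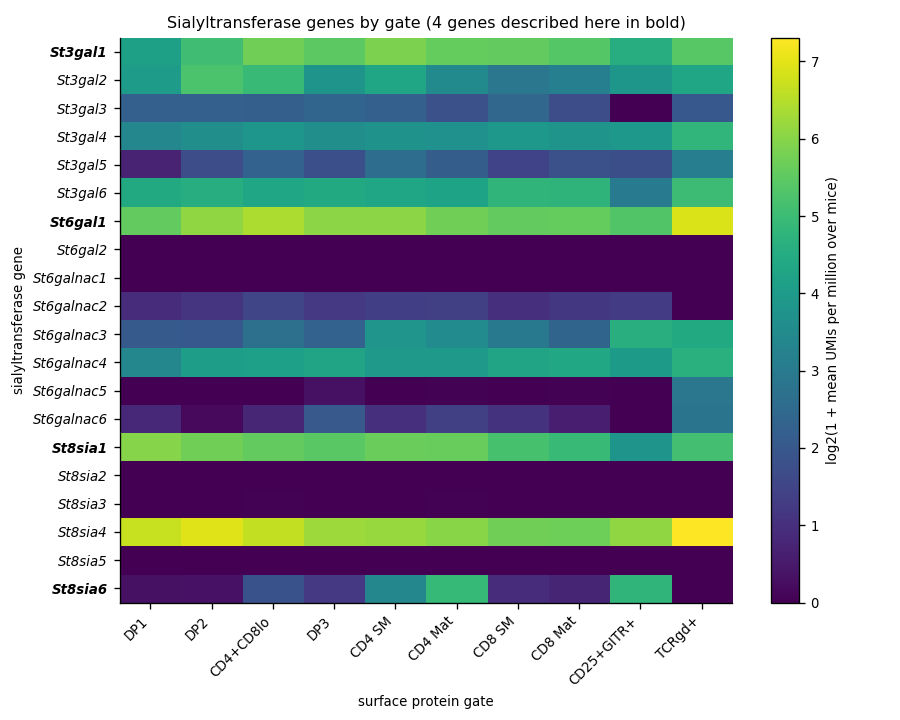
Mean level of 20 sialyltransferase genes (rows, the 4 described here in bold) in 10 surface protein gates (columns), as log2(1 + mean CPM over mice). Colors should be read along a row, since levels are not scaled to gene length: *St8sia6* is brightest in CD4 Mat and CD25+GITR+ cells, *St3gal2* in DP2 cells, and *St6gal2* and *St8sia5* were at 0 throughout.

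Across 122 sums of a mouse and gate with at least 50 cells, the genes most like each of the 4 were ranked by Pearson's r of log2(CPM + 5) among 9079 genes, as a description, since sums of 1 mouse share a library. For *St8sia6* they were *Vipr1* (0.81), *Il6ra* (0.75), *A630023P12Rik* (0.73), *Ifi30* (0.72) and *Zbtb7b* (0.71), and for *St3gal1* *Bach2* (0.85), *Tapbp* (0.82), *Ipcef1* (0.82), *Mllt6* (0.81) and *Ccnd2* (0.80). For *St6gal1* they were *Tes* (0.90), *Ptk2b* (0.85), *Rasgrp1* (0.83), *Gimap8* (0.82) and *Lasp1* (0.81), and for *St8sia1* *Dgkd* (0.73), *Parp11* (0.71), *Pip4k2a* (0.70), *Pvr* (0.69) and *Cflar* (0.69). With a pseudocount of 1 in place of 5, 4 of the 5 named genes stayed among the first 5 for each gene but *St8sia1*, which kept 5. Between the 4 genes themselves r lay between 0.11 (*St8sia1* with *St3gal1*) and 0.56 (*St8sia1* with *St6gal1*).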

How the data were processed

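RNA and 111 surface proteins were counted in thymocytes of 17 mice in 19 lanes (10x Chromium 3' v3). The authors deposited whole-number UMI counts per gene or antibody and cell, made with Cell Ranger 3.1.0 against mm10 (GRCm38), with no further normalization. The pooled matrices of several lanes were not used. Of 85389 barcodes, 72054 passed the study's stated filters (at most 15% mitochondrial UMIs, at least 200 genes, 1000 to 10000 antibody UMIs, at least 70 antibodies detected). Simulated-doublet scoring removed 2716 of these at 0.8% per 1000 barcodes, and removed cells had a median of 6642 RNA UMIs against 3997 in the 69338 cells kept. The study's own cell annotation and its joint RNA and protein model were not used. Both lanes of WT 4 and of WT 5 were summed, each mouse counting once.

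Cells were assigned to 16 gates on log2(1 + antibody UMIs per 10000), with thresholds placed on the antibody values after these had been seen (CD4 8, CD8a 8.5, TCRβ 6, CD69 5, CD127 3.5, CD71 6.5, CD25 6, GITR 6). CD4- or CD8a-low cells were below 7 and 6.5. A mouse entered a gate with at least 10 cells. UMIs were summed per mouse and gate and tested in R 4.3.3 with edgeR 4.0.16 (quasi-likelihood test, TMM scaling, low-count filter, Benjamini-Hochberg adjustment over all genes tested, threshold 0.05), with the mouse as a block within mice and the family of genotypes (AND with F5, MHC-deficient, OT) as a covariate between genotypes. Whether replicate numbers pair mice of different genotypes was checked on the deviations of same-numbered mice from their genotype means. Their correlation was 0.42 to 0.88 at DP1 in the 3 families and 0.23 to 0.88 at every gate of the OT family, but -0.05 to 0.16 at the later gates of the other families. In the AND with F5 family the number also follows the experiment. DESeq2 1.42.0, its size factors in edgeR, no low-count filter, a gap of 0.25 around each threshold, doublets kept, at least 30 cells, other covariates, WT mice alone and leaving out each mouse were alternatives. The fits were tested on simulated data. Tables and intervals were made in Python 3.11.15 with scipy 1.17.1.

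The 4 genes and all lists were chosen with earlier results of these data known. Named beside them were the called genes of the glycosylation lists (up to 5 per comparison by size of log2 fold change), the 5 genes most like each gene, and marker genes that check a gate or stand beside a result. No comparison of *St8sia6* carries a p-value, although tests of its CD4-lineage steps, of CD25+GITR+ cells and of MHCI-/- against WT mice had been planned. Intervals and limits on counts of 0 (3 UMIs) cover counting error only. Protein sequences were not used here, and 1 gate of other cells is not reported here.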

Additional observations from a re-analysis of the deposited data

Results flagged for a closer look

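In 12 of 87 groups of 4 to 10 mice, 1 mouse lay far from the others by Dixon's criterion, where chance gives about 1 in 20 groups, or 4.3. No flagged mouse was weighed against an explanation.

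For *St8sia6* the mice that stood apart were WT 4 in CD4 Mat cells (45.1 CPM from 86 UMIs, the nearest WT mouse at 40.0), and, on 1 or 2 UMIs each among mice at or near 0, MHCII-/- 2 in DP1 (0.427 CPM), MHCII-/- 1 in DP2 (0.910), AND 1 in DP3 (1.20) and OT-I 2 in CD8 SM cells (4.02).

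For *St8sia1* they were AND 2 in DP1 cells (105 CPM from 34 UMIs in 75 cells, the nearest at 64.7) and OT-I 2 in CD8 Mat cells (44.2 CPM in 700 cells, the nearest at 30.5). For *St3gal1* the mouse was WT 2 in DP3 cells (109 CPM from 49 UMIs in 70 cells, the nearest at 60.1).

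For *St6gal1* they were AND 1 in DP2 cells (123 CPM from 23 UMIs in 45 cells, the nearest at 80.1) and WT 5 in 3 gates. WT 5 had 130 CPM in CD4+CD8lo cells, 83.6 in CD4 Mat and 54.9 in CD8 SM cells, where the nearest WT mice had 83.4, 42.5 and 33.5, from 56, 54 and 19 UMIs. The lanes of WT 5 had the lowest median RNA depth, 1553.5 and 1507 UMIs per cell, and the part of depth in these values was not tested.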

How the results depend on the processing

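Under alternatives other than leaving out a mouse, 467 values of the 4 genes kept their direction and their side of the threshold, 6 gained and 17 lost a call, and 4 descriptive *St8sia6* values moved. With 1 mouse left out, 567 kept both, 9 gained and 18 lost a call and 4 moved, and no called change turned its sign. These counts include fitted *St8sia6* changes that are given without a test. With a pseudocount of 1, likeness shared 4 of 5 named genes for *St8sia6*, *St3gal1* and *St6gal1* and 5 for *St8sia1*. Causes were not tested. Same-numbered mice of different genotypes deviated together at DP1 and, in the OT family, at every gate, but not at every gate of the other families. With the replicate block the CD4-fated and CD8-fated contrast at CD4+CD8lo called 146 genes against 26, *St6gal1* among them (0.83, adjusted p = 0.0353).

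Without the mouse as a block, the CD4-lineage steps called 1645, 392, 954 and 469 genes against 3193, 1188, 2843 and 2049, the CD8-lineage steps 1785, 103, 256, 30 and 67, the WT contrasts 348, 342 and 1, and the CD25+GITR+ comparison 241. *St6gal1* then lost its calls at CD4 Mat less CD4 SM (-0.37, adjusted p = 0.364), at DP2 less DP1 in the CD8-lineage fit (0.61, 0.125) and in WT Mat cells (0.66, 0.217), *St3gal1* at the step to CD4 SM (0.38, 0.0708) and in CD25+GITR+ cells (-1.11, 0.132), and *St8sia1* in WT SM cells (0.69, 0.144). With WT mice alone the CD4-lineage steps to CD4+CD8lo and CD4 SM called 739 and 1836 genes and the CD8-lineage steps to DP2, CD4+CD8lo and DP3 2213, 719 and 458. WT alone moved *St6gal1* at CD4 Mat to -0.52 (0.147), *St8sia6* at CD4+CD8lo to 1.44 (not tested), *St3gal1* at CD4 SM to 0.37 (0.0781), *St8sia1* at CD4 Mat to 0.37 (0.026, now called) and *St3gal1* at CD4+CD8lo in the CD8-lineage fit to 0.72 (0.0356, now called).

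The contrast of CD4-fated and CD8-fated mice called 1 gene at DP1 (DESeq2 4, no low-count filter 123, gap around thresholds 0, no family covariate 0), 56 at DP2 (103, 178, 88, 2, and 135 with at least 30 cells) and 26 at CD4+CD8lo (54, 156, 43, 5). The end of the lineages called 2009 genes with no filter and 632 with no family covariate. CD25+GITR+ cells gave 922 with no filter and 357 with the gap. MHCI-/- mice gave 50 with no filter, and MHCII-/- mice 13 with DESeq2, 134 with no filter and 4 with the gap. CD8 SM less DP3 called 194 genes with the gap.

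DESeq2 ended the calls of *St6gal1* at CD4 Mat (-0.38, 0.0769) and *St3gal1* in CD25+GITR+ cells (-1.16, 0.152). Doublets kept ended those of *St6gal1* at CD4 Mat (-0.38, 0.0502) and *St3gal1* in CD25+GITR+ cells (-1.08, 0.0509), with *St8sia6* at CD4+CD8lo at 2.21. The gap ended those of *St3gal1* at CD4 SM (0.26, 0.142) and *St3gal1* in CD25+GITR+ cells (-0.78, 0.403), and moved the fitted *St8sia6* step to CD4+CD8lo to 2.91 and its lineage differences to 2.40 and 5.52 in WT SM and Mat cells, 3.11 between these stages and 9.32 at the end of the lineages. No filter on low counts added *St6gal1* at CD4+CD8lo (0.37, 0.0142), CD4 SM (-0.26, 0.0193) and DP3 (-0.52, 0.0197).

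With each mouse left out in turn, the contrast of CD4-fated and CD8-fated mice called 0 to 1, 4 to 86 and 10 to 116 genes at DP1, DP2 and CD4+CD8lo, the CD8-lineage steps 317 to 592 (CD4+CD8lo, WT 4), 167 to 488 (CD8 SM, WT 4 and MHCII-/- 2) and 206 to 481 (CD8 Mat, MHCII-/- 1), the difference between WT stages 62 to 132, the end of the lineages 832 to 1496 (MHCII-/- 2), and MHCI-/- and MHCII-/- mice 2 to 28 and 2 to 89. *St6gal1* ranged from 0.45 to 1.07 between genotypes at CD4+CD8lo (called without OT-I 2), from -0.36 to -0.20 at CD4 SM (called without WT 4, adjusted p = 0.0329), from -0.43 to -0.31 at CD4 Mat (adjusted p = 0.0416 to 0.0849), from -0.61 to -0.46 at DP3 (called without OT-I 1, OT-I 2 or WT 5) and from 0.46 to 0.74 in WT Mat cells. *St8sia1* ranged from 0.18 to 0.27 at CD4 Mat (called without AND 1, AND 2 or OT-II 1) and from -0.51 to -0.37 at CD4+CD8lo in the CD8-lineage fit (called without OT-I 1). *St8sia6* ranged from 2.39 to 3.70 at CD4+CD8lo, and its WT differences, all untested, from 2.63 to 3.56, 4.22 to 5.29 and 0.78 to 2.66. *St3gal1* ranged from -1.54 to -0.78 in CD25+GITR+ cells (adjusted p = 0.0189 to 0.286). At least 30 cells left 1 mouse with both gates of the CD25+GITR+ comparison, so that it was not run. Depth limits *St8sia6* before CD4 SM and every gene in CD25+GITR+ cells, where each rests on 10 to 25 UMIs.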

Other observations

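*St8sia1* in TCRγδ+ cells was at 61.8 and 55.2 CPM in OT-II 1 and OT-II 2 and at 14.6 and 4.58 CPM in MHCII-/- 1 and MHCII-/- 2, from 10 to 24 cells per mouse, and the genotypes did not overlap. *St3gal1* in the same cells lay between 19.0 and 51.2 CPM. In CD25+ double-negative cells of 9 mice *St3gal1* ran from 8.83 to 35.3 CPM (median 16.6) and *St6gal1* from 0 to 57.3 (median 4.74). These gates entered no comparison. Site and genotype cannot be told apart in the TCRγδ+ cells. In CD25+ double-negative cells, WT 4 and WT 5, of the same site as the OT mice, had 0 and 8.04 CPM of *St6gal1*. OT-II mice had 0.727 and 2.29 there and OT-I mice 24.6 and 57.3.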
